A study of Mus musculus with 21 samples.

Results

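Fos, Fosb, Fosl2, Jun, Junb, Jund, Atf3, Dusp1, Ier2 and Ier5 are 10 genes of the AP-1 transcription factor and its fast early partners. They were chosen by gene symbol from the 21872 symbols that both deposited count tables hold, and all 10 were found in each table. The study sequenced brain RNA of mice given water or trientine (TETA), a drug that chelates copper, and the labels call the drug-treated condition copper-deficient. There were 6 control and 6 TETA libraries at embryonic day 18.5 (E18.5), and 5 control and 4 TETA libraries at 7 weeks after birth. E18.5 replicates are numbered 1-1 to 3-2 in each group. Whether libraries with the same first number share an animal or litter is not stated. The control groups received water at both ages, and no genotype, strain or dose is stated in the labels. Every library is labelled as brain, and the protocol names prefrontal cortex of male mice at 7 weeks only, so region and sex at E18.5 are not stated. Nothing in the labels says that the libraries came from separate animals, so the p-values measure the spread between these libraries, which may be partly technical.

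AP-1 is a pair of basic leucine zipper proteins, either a Fos protein with a Jun protein or 2 Jun proteins, that binds DNA and switches on target genes. Many Fos and Jun genes are immediate early genes: calcium entry and kinase signalling switch on their transcription within minutes, with no need for new protein, and their RNA decays quickly. In brain their RNA is therefore widely read as a trace of recent neuronal activity or stress. Atf3 is a stress-induced relative of the same protein class, Dusp1 is a phosphatase that turns off MAP kinases, and Ier2 and Ier5 are further early response genes.

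Several of these genes are textbook targets of CREB, a factor that binds the cyclic AMP response element (CRE). The RefSeq table of the mouse build GRCm38.p6, the patched release of the mm10 build named in the submitters' processing notes, held a window from 250 bases before to 50 bases after the start for 9 of the 10 genes, and none for Ier2. The 5-base CRE core TGACG, searched on both strands, stood in 5 of these 9 windows (Fos, Fosb, Junb, Dusp1 and Atf3) and in 20.8% of all 32851 windows. The full site TGACGTCA, which contains a core on each strand, stood in the Dusp1 window alone among the 9 and in 1.79% of all windows. The AP-1 site TGANTCA stood in 0 of the 9 windows and in 7.81% of all windows, and the CArG box, the site of serum response factor, in 0 of 9 and 1.63%. Such matches describe these windows only, and for Dusp1 and Atf3 the RefSeq start used lies well inside the longer GENCODE gene span given further on. Whether such cores bear on the levels reported below was not tested. The 5 stretches of 80 bases that follow come from the 5 genes with a core and hold the cores. They are written 5′ to 3′ on the gene's strand with cores on either strand in capitals, and they lie at chr12:85473755-85473834 (plus strand), chr17:26508596-26508675 (minus), chr8:84978813-84978892 (minus), chr7:19310064-19310143 (minus) and chr1:191183334-191183413 (minus), in the order shown.
Fos: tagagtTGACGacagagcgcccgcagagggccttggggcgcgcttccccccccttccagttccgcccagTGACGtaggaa
Dusp1: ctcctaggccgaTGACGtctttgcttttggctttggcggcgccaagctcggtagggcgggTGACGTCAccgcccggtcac
Junb: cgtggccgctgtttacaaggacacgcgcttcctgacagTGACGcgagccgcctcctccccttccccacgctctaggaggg
Fosb: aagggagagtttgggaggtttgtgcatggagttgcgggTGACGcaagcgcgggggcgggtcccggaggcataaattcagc
Atf3: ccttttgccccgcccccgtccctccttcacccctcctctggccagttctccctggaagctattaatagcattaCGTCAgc
Fos showed 2 cores, at -129 and -66 from the start, and Dusp1 showed 3, of which the pair at -143 and -140 forms the full site. Fosb and Junb each had 1 core, and the single one of Atf3 lay on the opposite strand. No core was found in the windows of Fosl2, Jun, Jund and Ier5.

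Libraries held 14678265 to 24308555 counts at E18.5 and 17838051 to 24035857 counts at 7 weeks, with overlapping ranges for control and TETA at each age. Levels are TMM-scaled CPM, that is counts divided by a library size that the TMM method adjusts to make libraries comparable, and each age was scaled on its own. In bulk tissue a lower level can mean fewer cells of a type or less RNA per cell, and these cannot be told apart. Marker sums matched brain: the 6 pan-neuronal genes summed to between 6770 and 7140 CPM at E18.5 and between 7750 and 8170 CPM at 7 weeks, and the 10 cortical excitatory neuron genes to between 1860 and 2250 CPM and between 2300 and 2460 CPM. At 7 weeks, however, 15 of 15 striatum markers were lower in TETA, with sums of 1570 to 1870 CPM in control and 744 to 939 CPM in TETA. Of 12 nuclear or intron-retaining RNAs, 9 were higher in TETA, with sums of 2920 to 3270 CPM against 3650 to 4000 CPM. At E18.5 none of the marker lists had a gene past the adjusted threshold by the edgeR quasi-likelihood test, where 0 of all 13794 genes passed.

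At 7 weeks Fosb, Fosl2 and Ier5 were higher in TETA, and in each of them every TETA library lay above every control library. The other 7 genes did not pass: Fos, Junb, Dusp1 and Ier2 had higher means in TETA but spread widely among the libraries, and Jun, Jund and Atf3 had small differences. All 10 genes passed the filter on low counts at this age. The 3 calls compare with 9.96% of all 14240 genes past a Benjamini-Hochberg (BH) adjusted p of 0.05 by the edgeR quasi-likelihood test, and with 5.67% past it and higher in TETA. Groups that did not overlap were found for the same 3 genes and for 11.2% of all genes. An unadjusted p under 0.05 was found for 4 of the 10, against 24.0% of all genes. The log2 fold change was above 0 in 9 of the 10, with a median of 0.25 against 0.00 over all genes.

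**Figure D1:**
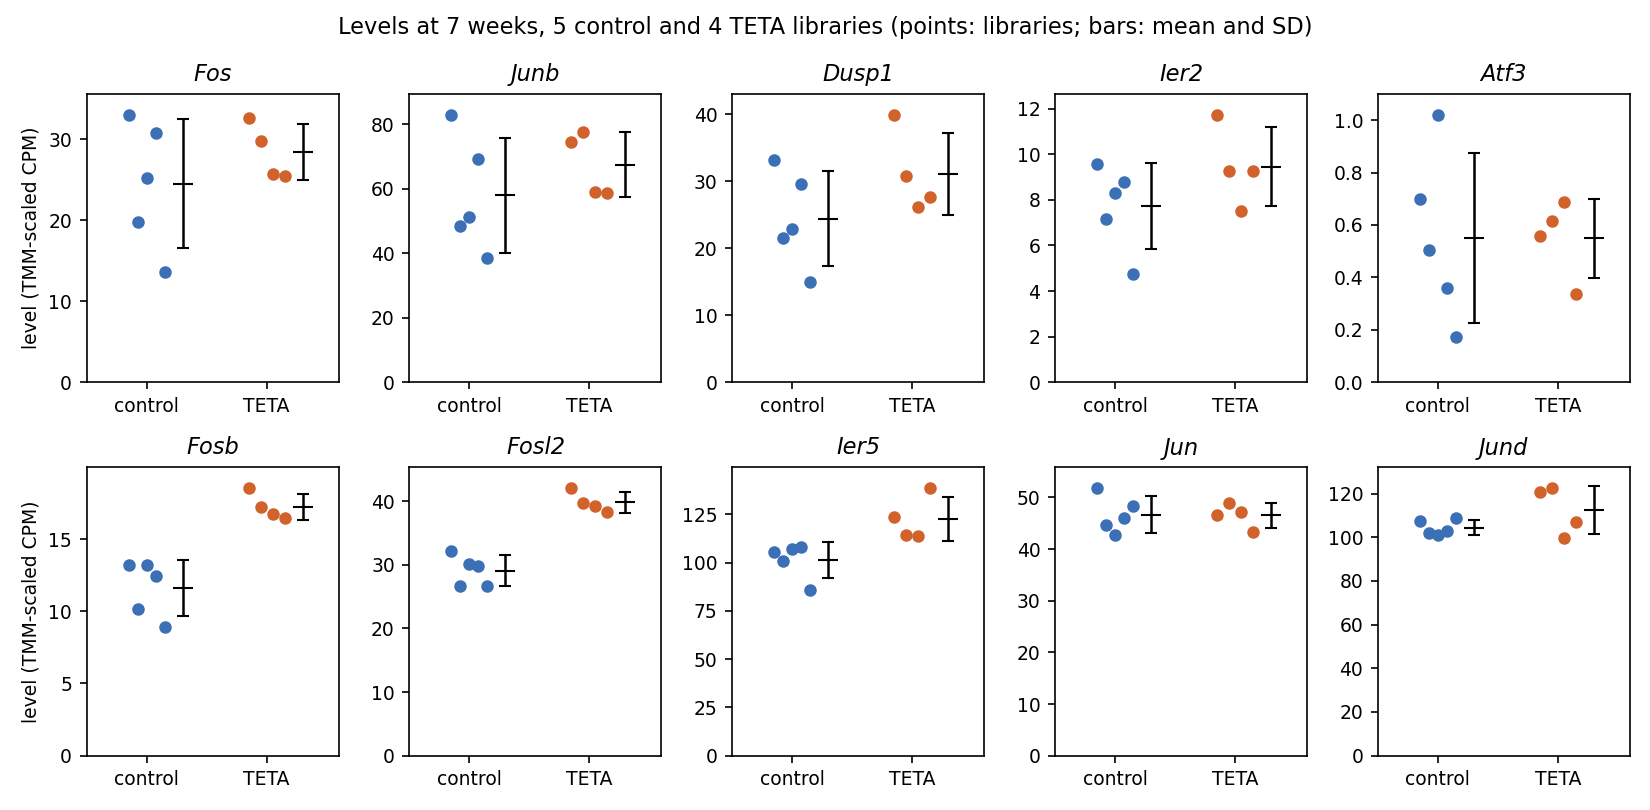
Level of each gene in every library at 7 weeks (points, TMM-scaled CPM on axes that start at 0), with mean and SD beside them for 5 control and 4 TETA libraries. For Fosb, Fosl2 and Ier5 every TETA point lies above every control point; for the other 7 genes the groups overlap.

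In the Fos family, Fosb (chr7:19302696-19310051, GENCODE vM21 on mm10) makes a partner for Jun proteins and, by splicing, a truncated stable form that gene counts do not separate. Its control libraries were at 13.2, 10.1, 13.2, 12.4 and 8.93 CPM, and its TETA libraries at 18.5, 17.2, 16.7 and 16.5 CPM. The groups did not overlap, and the TETA libraries were the more alike. The mean was 11.6 ± 1.94 CPM in water controls and 17.2 ± 0.913 CPM after TETA (SD, n = 5 and 4), and the log2 fold change was 0.58 (SE 0.095, adjusted p = 0.000488 by the edgeR quasi-likelihood test, BH).

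Fosl2 (chr5:32135801-32157842), which encodes Fra-2, a Fos protein without the strong activation domain of Fos itself, had the smallest p of the 10 genes. Control libraries were at 32.2, 26.7, 30.1, 29.8 and 26.7 CPM and TETA libraries at 42.0, 39.7, 39.2 and 38.2 CPM. The lowest TETA library was above the highest control. The mean was 29.1 ± 2.38 CPM in water controls and 39.8 ± 1.6 CPM after TETA (SD, n = 5 and 4), and the log2 fold change was 0.45 (SE 0.056, adjusted p = 2.77e-05 by the edgeR quasi-likelihood test).

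Fos (chr12:85473890-85477273), the best known activity marker of the family, did not pass. Its control libraries were at 33.0, 19.8, 25.2, 30.8 and 13.6 CPM, and its TETA libraries at 32.6, 29.8, 25.7 and 25.4 CPM. The highest library was a control, and all 4 TETA libraries lay within the control range. The mean was 24.5 ± 7.95 CPM in water controls and 28.4 ± 3.44 CPM after TETA (SD, n = 5 and 4), and the log2 fold change was 0.22 (SE 0.162, adjusted p = 0.444 by the edgeR quasi-likelihood test). Leaving out 1 library moved it between 0.06, without control replicate 5, and 0.36, without control replicate 1.

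In the Jun family no gene passed. Junb (chr8:84974484-84978718), an inducible Jun protein, was at 82.9, 48.3, 51.1, 69.3 and 38.4 CPM in control and at 74.3, 77.7, 59.0 and 58.6 CPM in TETA. As for Fos, controls 1 and 4 were the highest, control 3 was in the middle and controls 2 and 5 were the lowest. TETA lay within the control range. The log2 fold change was 0.22 (SE 0.148, adjusted p = 0.408 by the edgeR quasi-likelihood test). It was 0.10 without control replicate 5 and 0.39 without control replicate 1, its extremes when 1 library was left out. Jun (chr4:95049034-95052222), the founding partner of Fos, was at 46.7 ± 3.50 CPM in controls and at 46.5 ± 2.38 CPM with TETA (SD, n = 5 and 4), with a log2 fold change of -0.01 (SE 0.053), which took either sign under other scalings. Jund (chr8:70698949-70700616), the broadly expressed Jun gene, was at 104 ± 3.38 CPM and 112 ± 10.9 CPM, a log2 fold change of 0.10 (SE 0.051, adjusted p = 0.215 by the edgeR quasi-likelihood test). Without TETA replicate 3, whose 99.6 CPM was the lowest Jund value, its log2 fold change was 0.16 with an adjusted p of 0.0446 by the same test, but it was 0.07 without TETA replicate 1 and 0.06 without TETA replicate 2 (adjusted p = 0.502 and 0.518).

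Dusp1 (chr17:26505590-26562128) was at 33.2, 21.6, 22.9, 29.6 and 14.9 CPM in control and at 39.9, 30.7, 26.1 and 27.6 CPM in TETA. TETA replicate 1 was the highest library and control replicate 5 the lowest, and the groups overlapped. The log2 fold change was 0.35 (SE 0.156, unadjusted p = 0.0350, adjusted p = 0.169 by the edgeR quasi-likelihood test). Without control replicate 1, its highest control, the log2 fold change was 0.50 and the adjusted p 0.0387 by the same test, but it was 0.20 without TETA replicate 1 and 0.21 without control replicate 5 (adjusted p = 0.493 and 0.311). Reads of Ergic1, which overlaps Dusp1 on the opposite strand, could not be told apart from those of Dusp1 unless strand was used in counting, which is not given in the sources used here. Dusp1 also overlaps the pseudogene AC122252.4 and the intronic RNA AC122252.1 on its own strand, which strand would not separate. The limit of strand holds too for Prdx2 at Junb, the antisense RNA Junos at Jun, Gm11175 at Jund and Gm24748 at Atf3.

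Ier5 (chr1:155096361-155099636), whose protein binds the phosphatase PP2A and the heat shock factor HSF1, was at 105, 101, 107, 108 and 85.5 CPM in control and at 124, 114, 114 and 138 CPM in TETA. The groups did not overlap, and the narrowest gap lay between control replicate 4 and TETA replicate 3. The mean was 101 ± 9.25 CPM in water controls and 123 ± 11.4 CPM after TETA (SD, n = 5 and 4), and the log2 fold change was 0.28 (SE 0.062, adjusted p = 0.00655 by the edgeR quasi-likelihood test). Ier2 (chr8:84661331-84662852), a nuclear early response protein, was at 7.73 ± 1.87 CPM in controls and at 9.45 ± 1.73 CPM with TETA, with overlapping groups and a log2 fold change of 0.30 (SE 0.152, adjusted p = 0.240 in the same test). Leaving out 1 library moved the Ier2 value between 0.16, without control replicate 5, and 0.40, without TETA replicate 3. Atf3 (chr1:191170296-191218039) had 4 to 19 counts per library, and its log2 fold change of 0.03 carried an SE of 0.381, so no difference was detectable at this depth.

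The striatum markers fell with the same groups in which Fosb, Fosl2 and Ier5 rose. With the striatum score as a covariate, 0 of the 10 genes and 0 of all genes passed the adjusted threshold by the edgeR quasi-likelihood test, and 665 genes had an unadjusted p under 0.05. The log2 fold changes in that fit were 1.40 for Fosb (SE 0.33, adjusted p = 0.237), 0.88 for Fosl2 (SE 0.21, adjusted p = 0.237) and 0.68 for Ier5 (SE 0.24, adjusted p = 0.932) in the same test. Larger values than that of Fosb were fitted for 5 genes not called without the covariate, with log2 fold changes of 2.17 for Dusp1 (SE 0.47), 2.11 for Ier2 (SE 0.45), 1.96 for Fos (SE 0.52), 1.86 for Junb (SE 0.47) and 1.53 for Atf3 (SE 1.51) and adjusted p-values of 0.167, 0.167, 0.387, 0.314 and 0.999 in the same test. The score did not overlap between control and TETA and the SEs of all 10 genes were larger than without it, so the drug and the striatal marker level cannot be told apart. The nuclear RNA list also differed between the groups, and its part in the result was not tested. Fewer genes of other marker lists moved: 3 of 8 astrocyte genes and 4 of 8 meningeal genes passed and were lower in TETA, with astrocyte sums of 5620 to 6470 CPM in control and 5170 to 5520 CPM in TETA and meningeal sums of 691 to 819 CPM and 486 to 710 CPM, and their part was not tested either. Of the remaining marker lists, 1 of 4 choroid plexus genes was lower and 1 of 8 endothelial genes higher, the cortical and pan-neuronal lists had 3 of 10 and 2 of 6 genes past the threshold in mixed directions, and none of the blood, microglial and myelin genes passed in the same test.

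At E18.5 none of the genes passed, and the groups overlapped in all of them. Of the 10 genes, 9 passed the filter on low counts; Atf3, with 3 to 14 counts per library, did not. The 0 calls among the members stand beside 0% of 13794 genes past an adjusted p of 0.05 by the edgeR quasi-likelihood test (10 genes by DESeq2). An unadjusted p under 0.05 was found for Ier2 and Junb, 2 of 9 genes, against 4.78% of all genes. Groups that did not overlap were found for 0 of 9 and for 0.312% of all genes. The log2 fold change was above 0 in 8 of 9, with a median of 0.08 against 0.00 over all genes.

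Ier2 ran from 4.14 through a median of 4.94 to 6.11 CPM in control, and from 5.64 through 5.97 to 7.69 CPM in TETA. Most TETA libraries lay above most controls. The log2 fold change was 0.25 (SE 0.102, unadjusted p = 0.0229, adjusted p = 0.941 by the edgeR quasi-likelihood test). Junb ran from 5.04 through 6.24 to 6.87 CPM in control and from 5.97 through 7.18 to 7.60 CPM in TETA, and the log2 fold change was 0.20 (SE 0.089, unadjusted p = 0.0373, adjusted p = 0.996 in the same test).

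Fos itself was scarce in the embryonic brain, at 16 to 48 counts per library, and stood at 1.61 ± 0.451 CPM in controls and at 1.71 ± 0.323 CPM with TETA (SD, n = 6 and 6). Fosb had only 4 to 15 counts per library, at 0.508 ± 0.169 CPM and 0.657 ± 0.126 CPM, and its log2 fold change of 0.33 had an SE of 0.257. Fosl2 was the abundant Fos gene at this age, at 82.6 ± 7.11 CPM in controls and at 88.5 ± 8.13 CPM with TETA. For Jun, Jund, Dusp1 and Ier5 the unadjusted p was above 0.05: the control and TETA means were 45.9 and 46.1 CPM for Jun, 125 and 122 CPM for Jund, 22.9 and 24.3 CPM for Dusp1, and 52.0 and 54.2 CPM for Ier5.

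**Figure D2:**
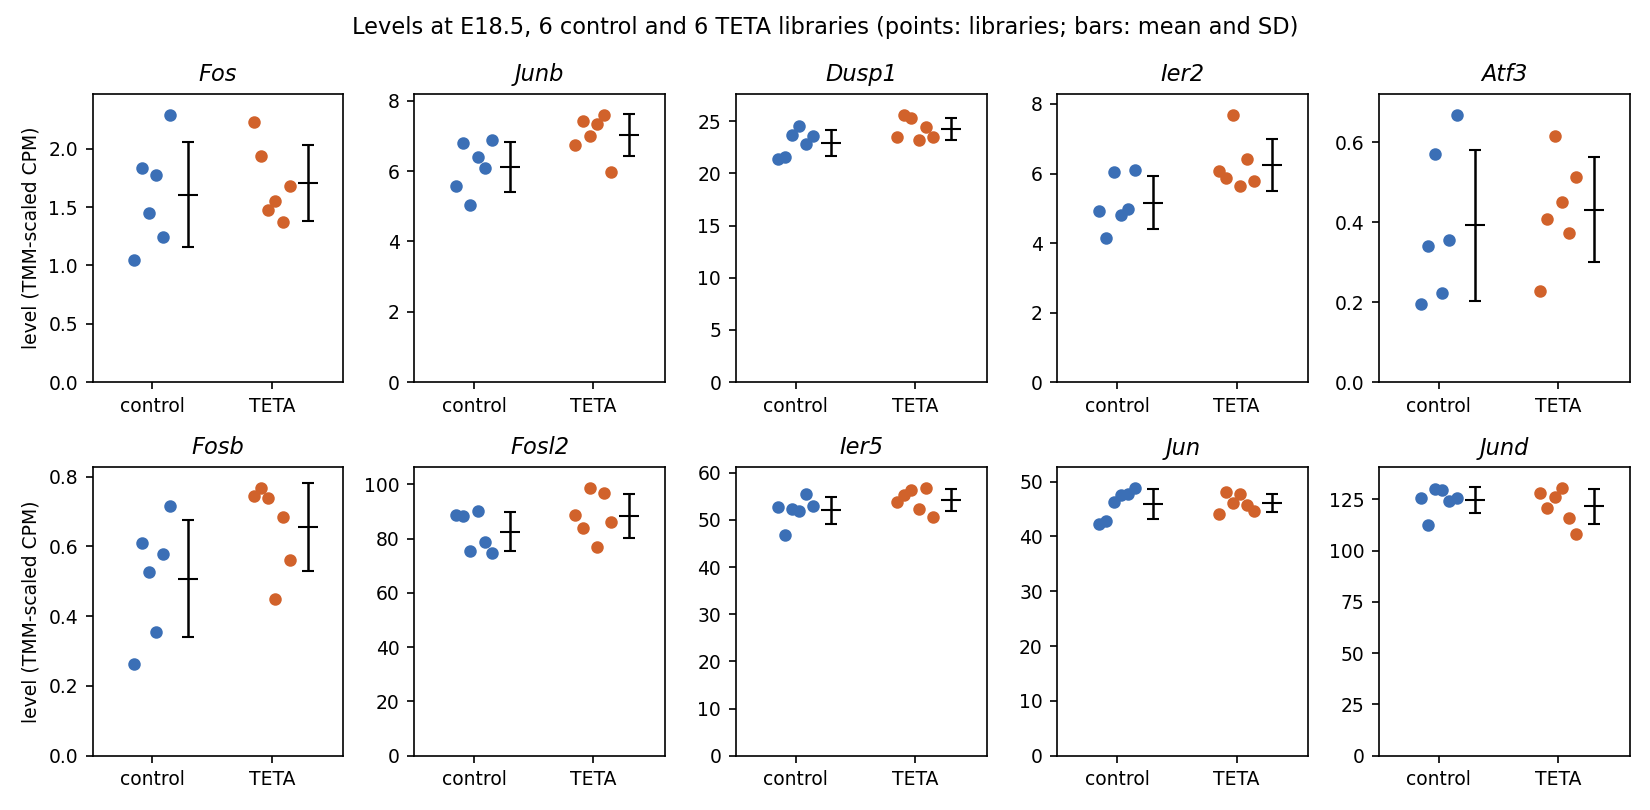
Level of each gene in every library at E18.5 (points, TMM-scaled CPM on axes that start at 0), with mean and SD beside them for 6 control and 6 TETA libraries. The groups overlap in all 10 genes, and Fos, Fosb and Atf3 lie below 3 CPM in every library.

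Whether the TETA effect differed between the ages was tested in 1 fit over all 21 libraries with an interaction of treatment and age. Brain region and sex are stated at 7 weeks only, so age cannot be told apart from region or sex in this test. Fosl2 was the only one of the 10 genes to pass, with a log2 fold change that was 0.34 larger at 7 weeks than at E18.5 (SE 0.093, adjusted p = 0.0335 by the edgeR quasi-likelihood test), where 3.1% of 14660 genes passed. This call was close to the threshold: with the counts as deposited it was lost, with an adjusted p of 0.0515 in that test. It was also lost in 8 of the 21 fits that left out 1 library, with adjusted p-values up to 0.0851 in the same test. Those libraries were E18.5 control replicates 1-1 and 2-2, E18.5 TETA replicate 3-2, 7-week control replicates 2 and 5, and 7-week TETA replicates 1, 2 and 3, and the Fosl2 difference without any of them stayed between 0.31 and 0.35. The difference was 0.21 for Ier5 (SE 0.081, adjusted p = 0.172) and 0.25 for Fosb (SE 0.290, adjusted p = 0.751) in the same test, so for these 2 genes the effect was called at 1 age without a called difference between ages. The Fosb difference was 0.12 without E18.5 control replicate 3-2, 0.14 without E18.5 TETA replicate 2-2 and 0.16 without 7-week control replicate 5.

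**Figure D3:**
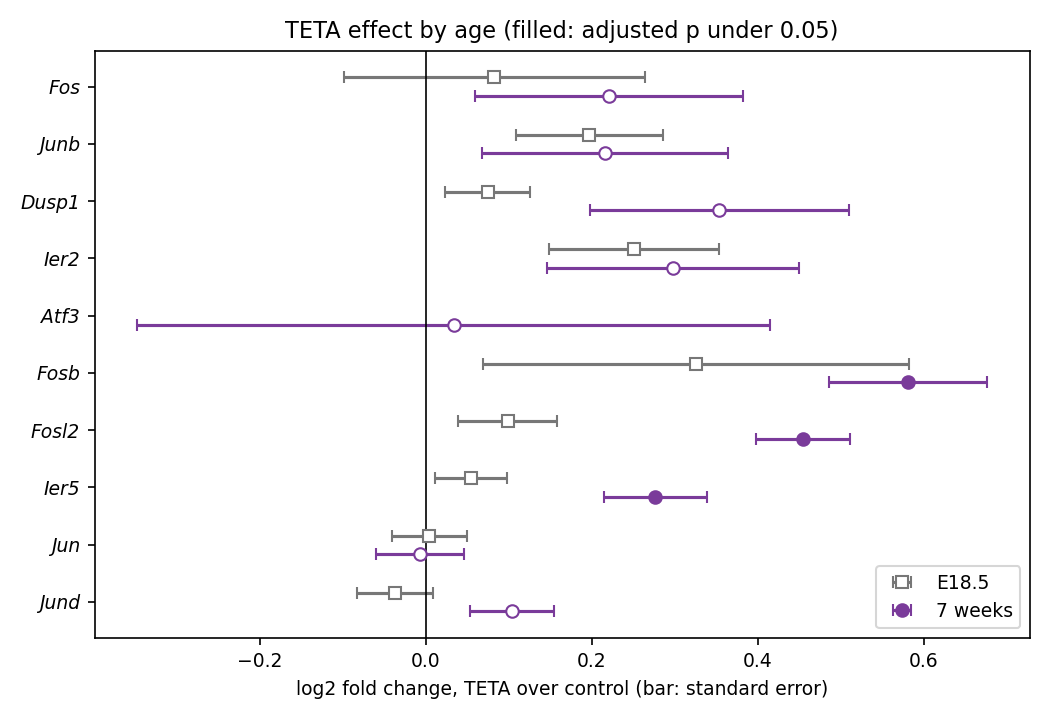
Log2 fold change of TETA over control for each gene at E18.5 (squares) and 7 weeks (circles), with the standard error as a bar and filled symbols for an adjusted p under 0.05. Fosb, Fosl2 and Ier5 at 7 weeks are filled, and Atf3 has no E18.5 value because it did not pass the filter on low counts.

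The water controls describe how the levels themselves differed between the tables of the 2 ages, for which a brain region is stated at 7 weeks only and which were scaled separately, so no test was made. Fosb was 22.8 times, Fos 15.2 times and Junb 9.47 times as high at 7 weeks as at E18.5, and their ranges did not overlap. Ier5 was 1.95 times as high at 7 weeks. Fosl2 went the other way and was 2.84 times as high at E18.5, as did Jund at 1.19 times. Jun (1.02 times), Dusp1 (1.06), Ier2 (1.5) and Atf3 (1.4, all 7 weeks over E18.5) had overlapping ranges.

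Per kilobase of exon, Jund was the highest of the genes in the controls of both ages, at 74.7 CPM per kb at E18.5 and 62.6 CPM per kb at 7 weeks. At 7 weeks Ier5 (30.9) and Junb (25.2) followed with overlapping ranges, then Jun (14.6), Fos (10.4), Dusp1 (7.38), Ier2 (5.08) and Fosl2 (3.01), each overlapping its neighbour in this run, and last Fosb (1.85) and Atf3 (0.255), all in CPM per kb. At E18.5 the order after Jund was Ier5 (15.9) and Jun (14.4), which overlapped, then Fosl2 (8.53), Dusp1 (6.93), Ier2 (3.39) and Junb (2.66), of which only Ier2 and Junb overlapped. Fos (0.683) stood above Atf3 (0.182) and Fosb (0.0814 CPM per kb), and the ranges of Atf3 and Fosb overlapped.

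The same genes differed in how much they varied between libraries of 1 group. At 7 weeks Fos had a coefficient of variation of 32.5% in control, where counting alone gives 4.37%, and Junb, Dusp1 and Ier2 had 30.7%, 29.2% and 24.2%. Without control replicate 5 these 4 values were 21.7%, 25.8%, 20.5% and 11.9%, in the same order. Jund and Fosl2 were at 3.24% and 8.18% over all 5 controls. In TETA the contrast was smaller: 12.1% for Fos, 14.9% for Junb, 19.9% for Dusp1, 18.3% for Ier2, 9.74% for Jund and 4.01% for Fosl2. Without TETA replicate 1 these values were 8.98%, 16.7%, 8.31%, 11.6%, 10.6% and 1.93%, in the same order. Ranked by within-group SD of log2(CPM + 1) among 11436 genes with a mean of at least 100 counts, Fos and Dusp1 stood at the 99.9th percentile, Junb at 99.8, Ier2 at 99.7 and Fosb at 97.0, but Ier5 stood at 88.9, Jund at 72.5, Fosl2 at 69.0 and Jun at 68.3. At E18.5 the same ranking among 11217 genes put Ier2 at 94.7, Junb at 84.7, Fosl2 at 83.0, Jund at 52.2, Ier5 at 29.8, Jun at 28.0 and Dusp1 at 25.3. In E18.5 controls the coefficient of variation was 14.9% for Ier2 and 11.7% for Junb, where counting alone gives 9.82% and 9.1%. Fos and Fosb at E18.5 and Atf3 at both ages had too few counts to be ranked. The ranking was chosen after seeing the data.

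At 7 weeks the wide spread was shared. Control replicate 5 was the lowest of the 9 libraries for Fos, Fosb, Fosl2, Junb, Dusp1, Ier2, Ier5 and Atf3. Over the 9 libraries, Fos and Dusp1 correlated with a Pearson r of 0.954 and a Spearman rho of 0.950 on log2(CPM + 1) (exact permutation tests, adjusted p = 0.00167 and 0.00952 over the 81 pairs of both ages). Without the 2 libraries farthest from the median of Fos, control replicates 5 and 2, r was 0.870. Fos and Junb had an r of 0.943 and a rho of 0.950 (exact permutation, adjusted p = 0.0026 and 0.00952), and r was 0.920 without those 2 libraries. Fos and Ier2 had an r of 0.931 and a rho of 0.833 (exact permutation, adjusted p = 0.00662 and 0.0837), and r was 0.689 without them.

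In all, 9 of 45 pairs passed at 7 weeks by r and 5 by rho. Some of these pairs join genes whose groups are separate, which alone raises r, so r was also computed with group means removed, and then 6 of 45 pairs passed in an exact permutation test within groups. These were Fos with Dusp1 (0.957), Junb (0.935) and Ier2 (0.925), Dusp1 with Junb (0.931) and Ier2 (0.952), and Fosb with Fosl2 (0.919). Fosb had an r of 0.932 to Fos on this scale (exact permutation, adjusted p = 0.0598) and Fosl2 one of 0.889 (adjusted p = 0.0818), neither past the threshold. Jun and Jund were at 0.175 and 0.126 to Fos, and Ier5 at 0.637. Over all libraries without control replicates 5 and 2, and with group means kept, the r to Fos was -0.0503 for Fosb, 0.0152 for Fosl2 and -0.277 for Ier5; these 3 values also hold the difference between the groups, which are separate for these genes, and r with group means removed was not computed without those 2 libraries. The pair count rested on few libraries: without control replicate 5 only Fosb and Fosl2 still passed, and without control replicate 2 there were 5 pairs.

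**Figure D4:**
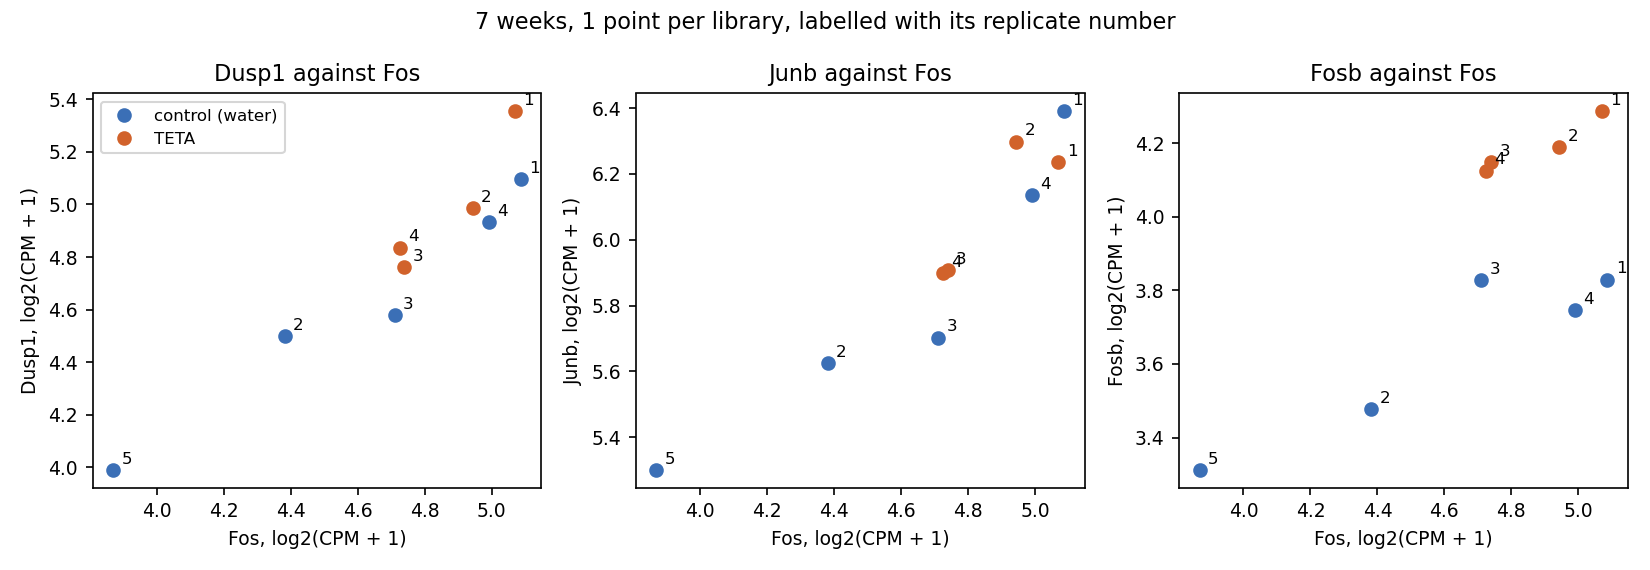
Dusp1, Junb and Fosb against Fos at 7 weeks, each axis in log2(CPM + 1), with 1 point per library marked by its replicate number. Dusp1 and Junb lie along 1 line through both groups with control replicate 5 at the low end, while for Fosb the TETA libraries lie above all control libraries, also at similar Fos.

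At E18.5, 0 of 36 pairs passed by r or by rho over 12 libraries (permutation test, 100000 resamples). The highest r was 0.694 for Ier2 and Ier5 (rho 0.692, permutation adjusted p = 0.0886 and 0.129), and 0.254 without the 2 farthest libraries. The lowest was -0.471 for Fosl2 and Jun. The median r over pairs was 0.288, against 0.511 at 7 weeks. Without control replicate 2-2, Dusp1 and Ier2 passed with an r of 0.832, and without control replicate 3-1, Ier2 and Ier5 passed with 0.810.

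**Figure D5:**
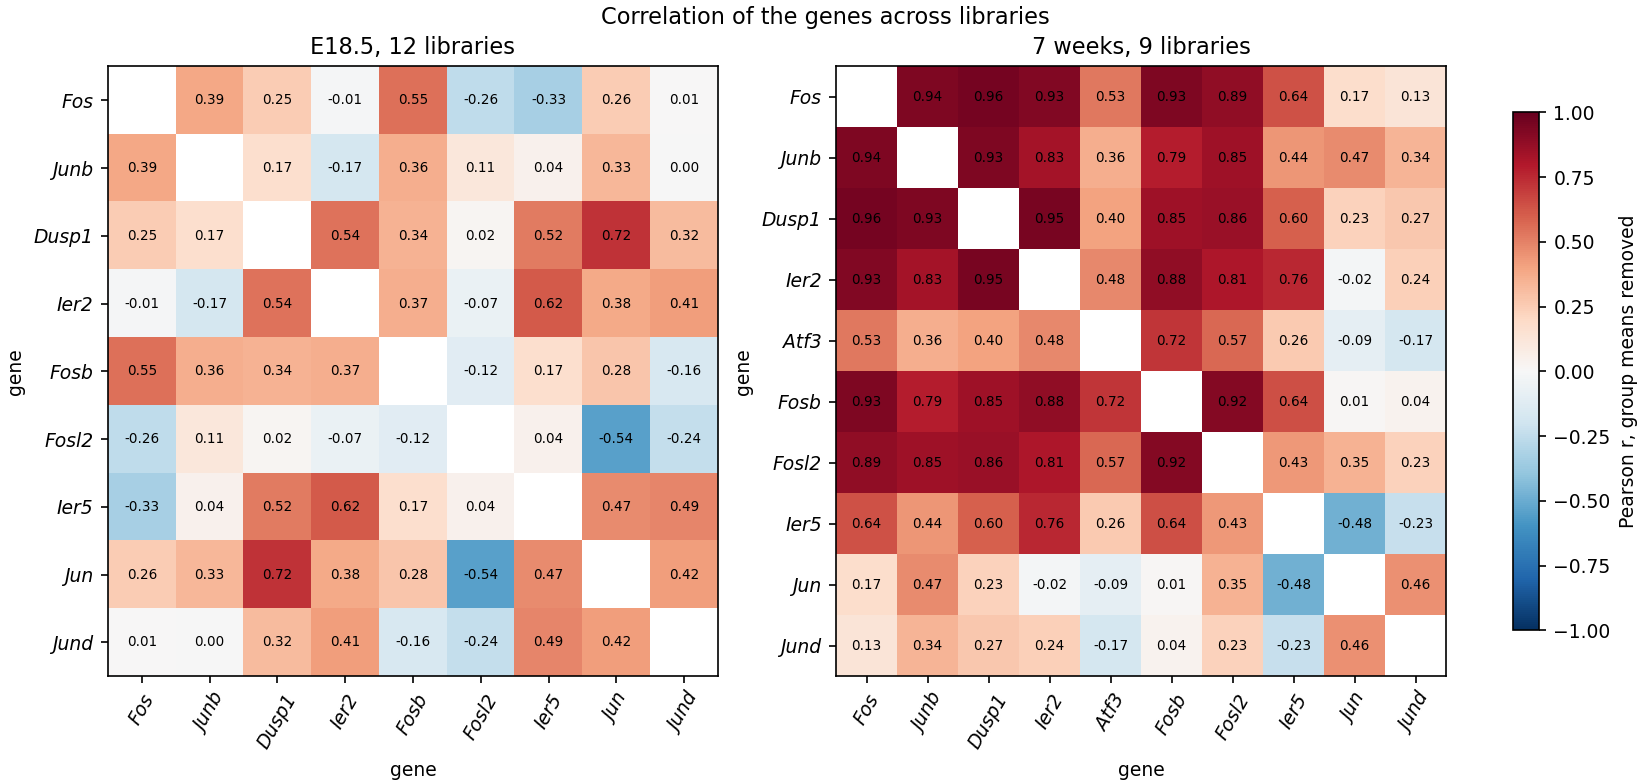
Pearson r between genes over the 12 libraries of E18.5 (left, 9 genes) and the 9 libraries of 7 weeks (right, 10 genes), on log2(CPM + 1) with group means removed, from blue (-1) to red (1). At 7 weeks Fos, Junb, Dusp1, Ier2, Fosb and Fosl2 form a red block, while Jun and Jund stand outside it; no such block is seen at E18.5.

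Among all genes tested at 7 weeks, Arc, a synaptic immediate early gene, was the most like Fos, with an r of 0.992 over 9 libraries with group means removed. Otud1 (0.972), Angpt1 (0.972), Cox15 (0.964) and Stat3 (0.949) were the next genes outside the list. Of 14239 genes ranked, Dusp1 was 5th, Junb 10th, Fosb 13th, Ier2 15th and Fosl2 36th, but Ier5 was 680th, Jun 4691st and Jund 5308th. Arc was itself higher in TETA, with a log2 fold change of 0.70 (adjusted p = 0.0276 by the edgeR quasi-likelihood test). At E18.5 the genes most like Fos were Rasl11a (0.896), Arid3a (0.891), Klhl20 (0.875), Hykk (0.869) and Tgfb3 (0.862) over 12 libraries, and the highest member, Fosb, ranked 396th of 13793. High ranks over so few libraries are a description.

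Within groups at 7 weeks, Fos was compared with 12 library measures, namely the library total and 11 marker sums. The striatum sum had an r of 0.718 and a rho of 0.777 (exact permutation, p = 0.0066 and 0.0417; adjusted p of r 0.0792), and r was 0.673 without the 2 farthest libraries. The meningeal sum had an r of -0.495 and a rho of -0.795 (exact permutation, p = 0.0427 and 0.0222; adjusted p of r 0.256), and r was -0.651 without its 2 farthest libraries. On the same scale r was -0.263 for the nuclear RNA sum (adjusted p = 0.748; rho 0.155, and r 0.839 without its 2 farthest libraries) and -0.337 for the library total (exact permutation, p = 0.417, adjusted p = 0.748). None passed after adjustment over the 12.

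Among other genes of these pathways at 7 weeks, counts are to be read beside the 9.96% of all genes past the adjusted threshold and the 5.67% past it and higher in TETA. Of 39 immediate early genes outside AP-1, 16 were higher and 2 lower in TETA, with a median log2 fold change of 0.29 against 0.00 over all genes. Egr3, a zinc finger factor of the activity response, had a log2 fold change of 0.50, the flow-responsive factor Klf2 0.66, and the orphan receptor genes Nr4a3 and Nr4a2 0.44 and -0.49. Of 25 upstream kinases and factors, 1 was higher, the serum response partner Elk4 (0.19), and 4 were lower, among them the kinase gene Camk4 (-0.23), Mef2c (-0.14) and Rps6ka4 (-0.15).

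Of 10 other MAP kinase phosphatases, 1 was higher, the ERK phosphatase Dusp5 (0.77), and 0 were lower, a share near the 9.96% of all genes. Of 16 late activity genes, 4 were higher and 3 lower, with Nptx1, a synaptic pentraxin, at 0.28, Cdkn1a at 0.55, Rasl11b at -0.20 and the neuropeptide gene Tac1, which is also on the striatum list, at -0.96. The genes named here from the lists passed edgeR's quasi-likelihood test with adjusted p-values between 3.17e-07 and 0.0367. At E18.5 0 genes of these 4 lists passed, and 8 of 39 other immediate early genes had an unadjusted p under 0.05, against 4.78% of all genes.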

How the data were processed

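Per the labels' protocols, stranded mRNA was sequenced (TruSeq kit). The authors deposited whole-number counts per gene symbol in 1 table per age, where each column is a library, per the file headers. The submitters' processing notes name STAR 2.7.1a, featureCounts 2.0.1 and the build mm10, with no settings. Groups came from the labels. In the E18.5 table, 1940 genes were at 0 in control replicate 1-1 and held only multiples of 11 in the other libraries, and their counts were divided by 11. None of the 10 genes is among them. Replicate libraries all differed by more than counting noise (lowest chi-square per gene of any pair 2.29).

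Genes were kept by filterByExpr (minimum count 10), scaled by TMM and tested at each age with edgeR 4.0.16 (quasi-likelihood, two-sided, BH over all genes, threshold 0.05) in R 4.3.3. SEs were taken as the absolute log2 fold change over the root of F. The depth per library was 14678265 to 24308555 counts, and the biological coefficient of variation was 5.85% at E18.5 and 4.55% at 7 weeks. Correlations used log2(CPM + 1) and permutation tests (scipy 1.17.1, numpy 2.4.6, pandas 2.3.3, Python 3.11.15). The fit was tested on simulated data. Alternatives tried were testing all genes, a minimum mean of 50 counts, library totals without TMM factors, DESeq2 1.42.0, library quality weights in limma 3.58.1 voom, the counts as deposited, summed libraries, a striatum covariate, leaving out 1 library at a time, and a replicate block. The summed libraries were those of an E18.5 group with the same first replicate number, and the interaction was not fitted on them. For correlations the alternatives were Spearman rho, a pseudocount of 0.1 and group means removed.

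The genes and lists were chosen with earlier results of these data known. All 10 genes were to be named, as were up to 4 genes past the threshold with the smallest p from each pathway list and the 5 genes with the highest r to Fos. The result of 1 pathway list is not reported here. Gene positions and exon lengths are from GENCODE vM21 on mm10, and promoter sequences are from RefSeq on GRCm38.p6.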

Additional observations from a re-analysis of the deposited data

Results flagged for a closer look

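In the E18.5 control group, Jund of replicate 1-2 was the lowest library at 113 CPM, with the others between 124 and 130 CPM. Its gap to the next library was 0.685 of the group's range, above Dixon's critical value for 6 samples. It was the 1 such library over 40 gene and group combinations, where chance alone gives about 2. The TETA effect on Fosl2 was called different between the ages. Its log2 fold change was 0.344 larger at 7 weeks than at E18.5 by the interaction test in edgeR's quasi-likelihood fit (adjusted p = 0.0335). This call was lost in 8 of the 21 fits that left out 1 library. It was also lost with the counts as deposited (adjusted p = 0.0515 in the same test). Age cannot be told apart here from region or sex, which are stated at 7 weeks only. The log2 fold change of Fosl2 was 0.45 at 7 weeks and 0.10 at E18.5.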

How the results depend on the processing

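At E18.5 the count of genes past the threshold was 0 (660 at an unadjusted p under 0.05), 10 by DESeq2, 8 with library quality weights, 2 with summed libraries, 7 without both libraries numbered 1-2 (chosen after seeing the data) and 0 to 7 on leaving out 1 library, and none of the 10 genes was called in any of these. At 7 weeks it was 1418 genes, 927 to 1392 on leaving out 1 library (927 without TETA replicate 3), and 0 with the striatum covariate, where the called members also fell from 3 to 0; otherwise Fosb, Fosl2 and Ier5 were called in every alternative run, with 3 to 4 members on leaving out 1 library. Without TMM factors 1003 of 1483 genes were higher, against 808 of 1418. The interaction had 454 genes, 290 to 622 on leaving out 1 library (290 without 7-week TETA replicate 3); its called members went from 1 to 0 with the counts as deposited (Fosl2 adjusted p = 0.0515 in edgeR's quasi-likelihood test) and were 0 to 1 on leaving out 1 library. Correlated pairs at 7 weeks were 9, 5 by rho and 1 to 11 on leaving out 1 library, and at E18.5 0, with 0 to 1.

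The direction of Jun turned at E18.5 (0.00) to -0.0033 without TMM factors, -0.029 with library quality weights and -0.027 without both libraries numbered 1-2; at 7 weeks (-0.01) to 0.0094 without TMM factors, 0.0092 with the replicate block and 0.050 with the striatum covariate; and in the interaction (-0.02) to 0.014 without TMM factors. Atf3 at 7 weeks (0.03) turned to -0.22 with the replicate block. The cause was not tested. On leaving out 1 library, log2 fold changes ran from -0.00062 to 0.22 for Fos and from -0.017 to 0.023 for Jun at E18.5, from -0.037 to 0.034 for Jun and from -0.21 to 0.34 for Atf3 at 7 weeks, and in the interaction from -0.030 to 0.26 for Fos, -0.052 to 0.019 for Jun, -0.11 to 0.18 for Junb, -0.32 to 0.22 for Atf3 and -0.10 to 0.14 for Ier2. Of 196 single-gene values under the other alternatives, 184 kept direction and side of the threshold, 4 lost the call and 8 turned; of 408 on leaving out 1 library, 362 kept both. Control and TETA libraries share replicate numbers in the labels. Deviations of same-numbered libraries correlated at -0.322 to 0.331 at E18.5 and -0.116 to -0.0355 at 7 weeks. The numbers were therefore not taken as pairs. At E18.5 the control and TETA replicates 1-2, at 0.331, were each other's closest match across the groups. Whether they share a batch is not stated. With a replicate block, 0 genes passed at E18.5 (719 unadjusted) and 1072 at 7 weeks, 991 of them shared with the fit without it, and the calls of the members stayed at 0 and 3. Counts below about 20 per library limit Atf3 at both ages and Fosb at E18.5.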
